A study of Mus musculus with 8 samples.

Results

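Blood vessels of the molar mesenchyme were followed through 35 genes of endothelial cells, pericytes and vascular smooth muscle. The genes were chosen by name, with earlier results of these data known, and all 35 were found among the 20926 genes of the expression table. RNA-seq was done on molars of mice at postnatal day 3, from which, by the labels, the epithelium had been removed. The labels give the strain as C57BL/6, while the study's methods describe its mice as of mixed background. The 4 control libraries came from Ezh2fl/fl mice, which carry floxed *Ezh2* alleles and no Cre, and the 4 mutant libraries came from *Osr2KI-Cre;Ezh2fl/fl* mice, written *Osr2-Cre;Ezh2fl/fl* by the study. *Ezh2* encodes the H3K27 methyltransferase of Polycomb repressive complex 2, and both groups carry the floxed alleles, so the groups differ by the Cre allele. The study describes Osr2-Cre as active in dental mesenchyme and in the bone around the tooth, with the dental epithelium spared. Endothelial cells are not named there as a target. The labels do not state that each library is a separate mouse, so p-values measure the spread between these samples.

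Endothelial cells line the vessel wall and respond to VEGF, angiopoietin and apelin ligands through receptors on their surface. Pericytes and smooth muscle cells surround the endothelial tube, are recruited by PDGF-B from the endothelium and, with other mesenchymal cells, secrete angiopoietin-1. In the tooth, vessels reach the pulp from the jaw with the nerve and spread beneath the odontoblast layer as the crown mineralizes.

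The libraries held an estimated 48.3 to 68.8 M reads, and all 35 genes passed the filter for testing, a normalized value of 1 or more in 4 or more libraries, which 14854 genes passed. The deposited normalized values behave as read numbers per gene scaled to a common 75th percentile of about 38.46, with no division by gene length, so that 1 read equals 0.0129 to 0.019. Each fold change is the mutant mean of log2(value + 1) minus the control mean, and was tested with limma. The targeted gene, *Ezh2*, was at 42.9 ± 8.03 (SD, n = 4) in control and 31.1 ± 5.92 (n = 4) in mutant libraries. Its 4 mutant values lay below the 4 control values, but its limma adjusted p was 0.235. Mutant library 1 stood apart in a way related to gene length. Its median deviation from the mean of 8 libraries was 0.198 on the log2 scale over the 1364 genes under 1500 exonic bases and -0.097 over the 4455 genes of 6000 bases or more. Epithelial transcripts were present in all 8 libraries, which goes against a full removal of the epithelium, with 4 keratinocyte and junction markers summing to 1494 to 3474 in control and 1468 to 2040 in mutant libraries. The enamel matrix transcripts of ameloblasts, an epithelial cell, summed to 726.2 to 28280 in control and 675.1 to 11280 in mutant libraries and were high in control libraries 3 and 4 and mutant library 3. Values without these 3 libraries are given for the counts and beside several groups and genes.

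Among the vessel genes, 1 change passed the test, a rise of *Angpt1* in mutant molar mesenchyme, and most of the others had slightly lower mutant values that did not pass it. The log2 fold change was negative for 26 of the 35 genes (74.3%), with a median of -0.141, while 45.9% of all genes tested were negative, with a median of 0.013. At an adjusted p under 0.05 limma called 1 of the 35 genes, *Angpt1*, which was higher, and 0 that were lower, against 2.07% of all genes tested (1.56% higher and 0.512% lower). At an unadjusted p under 0.05 there were 11 of 35 (31.4%), against 13.1% of all genes. Of these, 4 were higher (*Angpt1*, *Erg*, *Lyve1* and *Cspg4*; background 8.27%) and 7 were lower (*Kdr*, *Cdh5*, *Pecam1*, *Vwf*, *Plvap*, *Apln* and *Rgs5*; background 4.87%). The control and mutant values did not overlap for 6 genes. *Erg*, *Angpt1* and *Lyve1* were higher in every mutant library, where 5.76% of all genes tested were, and *Cdh5*, *Kdr* and *Rgs5* were lower in every mutant library, where 2.77% were. For each of these 6 genes the two-sided exact permutation p was 0.0286, the smallest that 4 against 4 libraries allow. The members share cell types and libraries, so their counts are a description and not independent tests. In these bulk samples fewer cells of a type and less RNA per cell cannot be told apart.

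**Figure D1:**
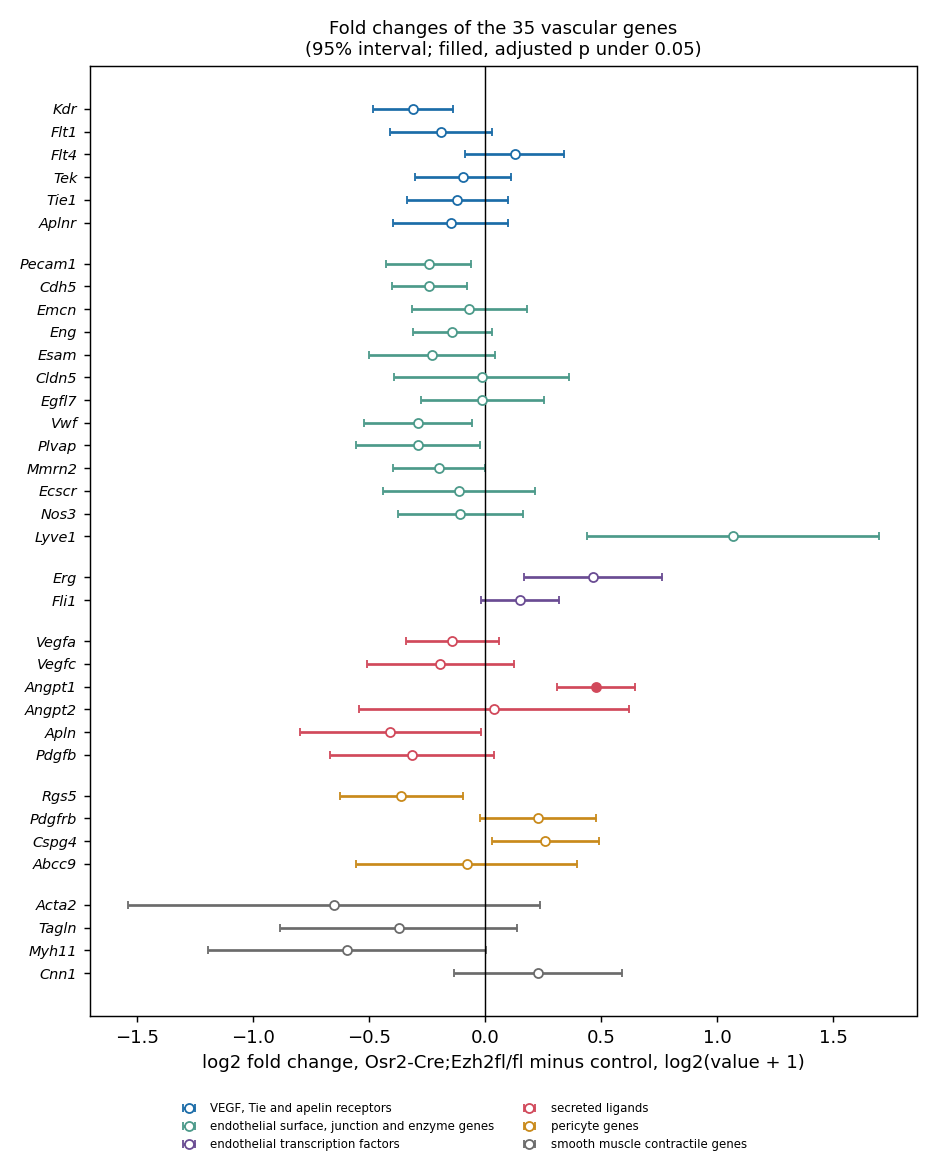
Log2 fold change (mutant minus control, log2(value + 1), x axis) of the 35 vascular genes grouped by role (y axis), with 95% limma intervals from 4 control and 4 mutant libraries. *Angpt1*, filled, is the gene with an adjusted p under 0.05, and 26 of the 35 points lie left of 0.

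Mutant library 1 moved these counts. It held the highest mutant value for 19 of the 35 genes and for 8 of the 9 genes with under 3000 exonic bases. Without it 16 genes had an unadjusted p under 0.05 (4 higher and 12 lower), against 14.7% of all genes (9.4% higher and 5.33% lower), and 2 had an adjusted p under 0.05, against 2.89%. Those 2 were *Angpt1* and *Plvap*, with *Plvap* at a log2 fold change of -0.41 (limma adjusted p = 0.0472). Without it 7 genes (*Pecam1*, *Cdh5*, *Kdr*, *Esam*, *Plvap*, *Mmrn2* and *Rgs5*) lay below every control value, against 4.95% of all genes, and 4 genes (*Erg*, *Angpt1*, *Lyve1* and *Pdgfrb*) lay above every control value, against 8.91%. Among the control libraries, control library 1 held the lowest value for 23 of the 35 genes. Without the 3 libraries with high enamel transcripts 4 genes had an unadjusted p under 0.05 in limma, against 7.08% of all genes, and 0 an adjusted one, against 0.0539%. Of the 4, 3 were higher (background 4.08%) and 1 was lower (background 3.0%), where 7 had been lower with all libraries. The number of negative log2 fold changes was then 24 of 35, with a median of -0.111.

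**Figure D2:**
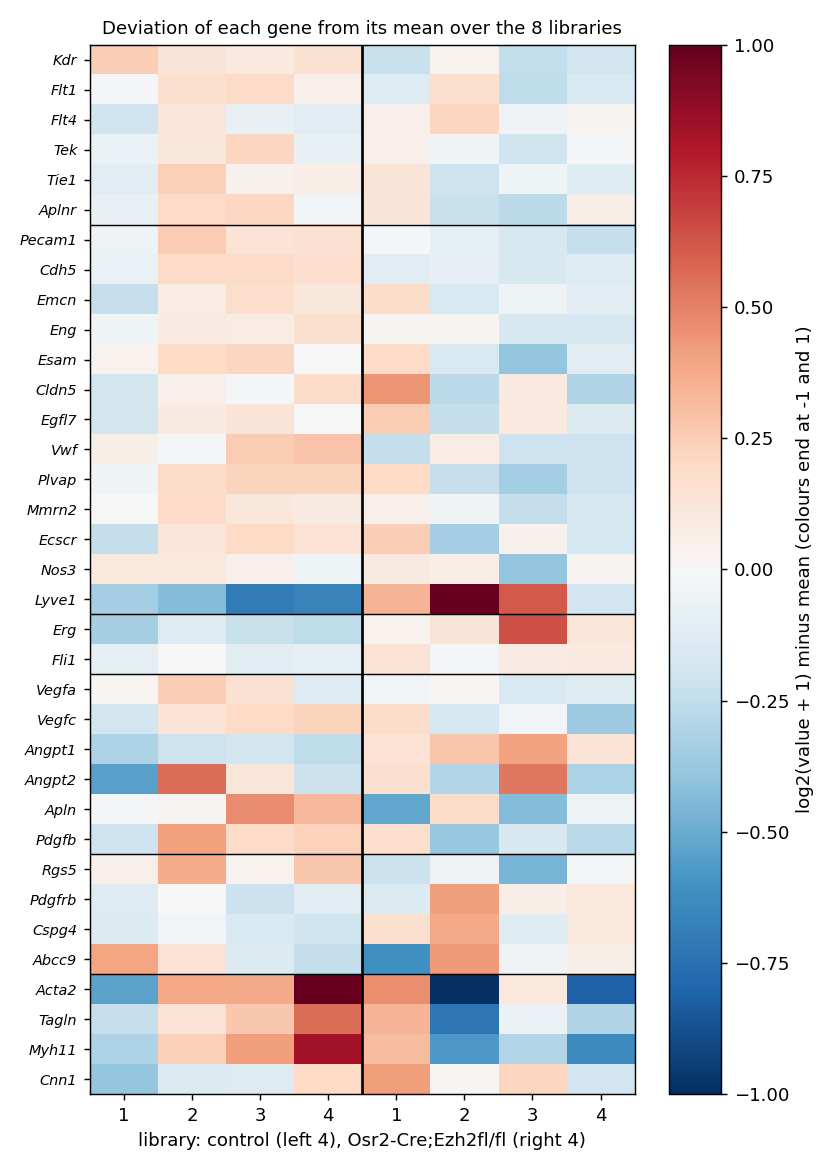
Deviation of log2(value + 1) from the mean of the 8 libraries (colour, log2 units) for the 35 genes (y axis, grouped by role) in control libraries 1 to 4 and mutant libraries 1 to 4 (x axis). *Lyve1*, *Erg* and *Angpt1* are low in all control and higher in all mutant columns, and *Acta2*, *Myh11*, *Angpt2* and, among mutants, *Lyve1* differ widely between libraries of a group.

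*Angpt1* encodes angiopoietin-1, the agonist ligand of the Tie2 receptor, made mainly by cells around the vessel. It lies at chr15:42424723-42676977 on the minus strand of GRCm38. *Angpt1* was at 66.6, 71.7, 73.0 and 69.3 in control libraries 1 to 4 and at 91.9, 100.5, 109.9 and 91.2 in mutant libraries 1 to 4. Every mutant library was above every control library, and the lowest mutant value was well clear of the highest control value. The means were 70.2 ± 2.80 and 98.4 ± 8.78 (SD, n = 4 each), a ratio of 1.40, and the log2 fold change was 0.48 (SE 0.0749, limma adjusted p = 0.0119). The rise kept an adjusted p of 0.0146 to 0.0449 when each library was left out in turn. It missed the threshold with the level of skeletal muscle transcripts as a covariate (log2 fold change 0.45, limma adjusted p = 0.0642) and without the 3 libraries with high enamel transcripts (0.45, limma adjusted p = 0.212, from 5 libraries). An antisense gene on the other strand, *Gm17473*, shares 737 exonic bases with *Angpt1*, and the counting strand is not given in the sources used here, so reads from those bases cannot be told apart.

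The partners of *Angpt1* among the 35 genes overlapped between groups. *Angpt2*, which encodes a context-dependent antagonist of Tie2 stored in endothelial cells, was at 2.69, 6.93, 4.87 and 3.64 in control and 5.004, 3.40, 6.76 and 3.33 in mutant libraries. These ranges overlapped almost wholly, and the 95% interval of the fold was 0.687 to 1.54. *Tek*, which encodes Tie2, was at 28.5 ± 2.93 in control and 26.6 ± 2.00 in mutant libraries (interval of the fold 0.811 to 1.08). *Tie1*, its partner receptor, was at 39.7 ± 3.96 and 36.5 ± 3.81 (0.791 to 1.07).

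Outside the 35 genes, a further 14 names of the VEGF, angiopoietin and apelin pathways were followed, of which 13 were in the table and 12 passed the filter. Of those 12, 1 was higher and 1 lower at an adjusted p under 0.05, where 1.56% and 0.512% of all genes were. *Angpt4*, a further angiopoietin and a Tie2 ligand, was at 7.96, 9.54, 6.12 and 9.22 in control and 17.2, 41.2, 36.7 and 26.1 in mutant libraries. Each mutant value was above each control value, by a ratio of means of 3.69 (log2 fold change 1.71, SE 0.249, limma adjusted p = 0.00905), and without the libraries with high enamel transcripts its log2 fold change was 1.5 (limma adjusted p = 0.267). *Apela*, which encodes a second ligand of the apelin receptor, was at 1.26 to 1.65 in control and 0.415 to 0.965 in mutant libraries (log2 fold change -0.57, SE 0.119, limma adjusted p = 0.044). Its low level amounted to 31 to 122 estimated reads, and its limma adjusted p was 0.0562 with a pseudocount of 0.1 (log2 fold change -1.05) and 0.0505 with one of 5 (-0.20), rose to as much as 0.14 when single libraries were left out and was 0.358 without the libraries with high enamel transcripts.

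**Figure D3:**
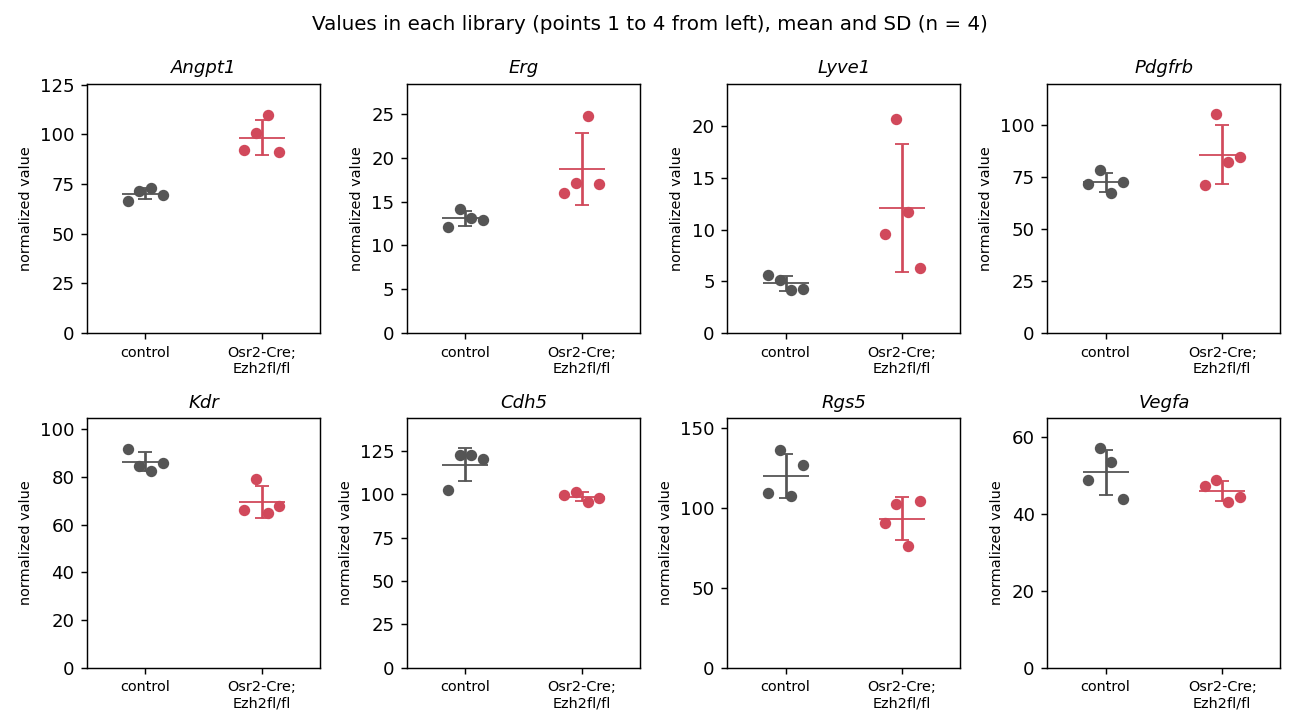
Normalized values (y axis, from 0) of 8 vascular genes in 4 control (grey) and 4 mutant (red) libraries, with the mean (long bar) and SD. *Angpt1*, *Erg* and *Lyve1* lie higher and *Kdr*, *Cdh5* and *Rgs5* lower in all mutant libraries, whereas *Pdgfrb* and *Vegfa* overlap.

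Of the 6 receptors of VEGF, angiopoietin and apelin ligands, 5 had a negative log2 fold change (median -0.134), where 45.9% of all genes tested did. None passed the limma test after adjustment, and 1 (*Kdr*) was lower at an unadjusted p under 0.05 (background 4.87%). *Kdr* encodes VEGFR2, the main signalling receptor for VEGF-A on endothelial cells (chr5:75932827-75978458, minus strand). It was at 91.9, 84.7, 82.7 and 86.0 in control and 66.3, 79.3, 65.0 and 67.6 in mutant libraries. The mutant values were all lower, with mutant library 2 closest to the control range. The log2 fold change was -0.31 (SE 0.0770, limma adjusted p = 0.0853), and leaving out mutant library 2 brought the limma adjusted p to 0.0355. Without the libraries with high enamel transcripts the log2 fold change was -0.31 (limma adjusted p = 0.545). *Flt1*, the VEGFR1 gene, a high-affinity decoy receptor for VEGF-A, was at 38.6 ± 2.67 in control and 33.9 ± 4.45 in mutant libraries (log2 fold change -0.19, limma adjusted p = 0.477). *Flt4*, the VEGFR3 gene, which binds VEGF-C and marks lymphatic and sprouting endothelium, was the one receptor with a positive value, at 15.9 ± 1.61 and 17.4 ± 1.38 (0.13, limma adjusted p = 0.686). *Aplnr*, the apelin receptor, was at 70.7 ± 7.27 and 63.8 ± 8.83 (-0.15, limma adjusted p = 0.686). The groups overlapped for these 3 receptors.

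The ligands of these receptors were mixed. Of 6 secreted ligands 4 had a negative log2 fold change, and *Angpt1* was the one that passed the adjusted threshold. *Vegfa*, which drives vessel growth towards hypoxic tissue, was at 48.6, 57.1, 53.5 and 43.8 in control and 47.1, 48.7, 43.0 and 44.2 in mutant libraries. The mutant values lay within or just below the control range (interval of the fold 0.788 to 1.04, limma adjusted p = 0.601). *Vegfc*, the lymphatic growth factor, was low in both groups, at 4.60 ± 0.684 and 3.92 ± 0.790 (log2 fold change -0.19, limma adjusted p = 0.679). *Apln*, made by endothelial tip cells, was at 16.4, 16.9, 23.3 and 20.95 in control and 11.2, 18.9, 12.0 and 15.9 in mutant libraries. Mutant library 2 was inside the control range and the other mutant libraries were below it (-0.41, SE 0.174, limma adjusted p = 0.347). *Pdgfb*, the endothelial ligand that recruits pericytes, was at 13.1 ± 2.40 and 10.3 ± 1.98 (-0.31, limma adjusted p = 0.459).

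The 13 genes of the endothelial surface, junctions and enzymes gave 12 negative log2 fold changes (median -0.141) and none that passed after adjustment, where 45.9% of all genes were negative. At an unadjusted p under 0.05, 4 were lower (background 4.87%) and 1, *Lyve1*, was higher (background 8.27%). Without the libraries with high enamel transcripts 9 of the 13 were negative, with a median of -0.061. Then 0 had an unadjusted p under 0.05 in limma, against 7.08% of all genes. With the level of ameloblast transcripts as a covariate 8 were negative, with a median of -0.207. With that covariate 2 were lower at an unadjusted p under 0.05 (background 6.11%) and 1 was higher (8.31%). *Cdh5* encodes VE-cadherin, the adhesion molecule of endothelial junctions (chr8:104101625-104144511, plus strand). It was at 102.7, 122.9, 122.5 and 120.6 in control and 99.5, 101.5, 95.9 and 98.1 in mutant libraries. All mutant values were lower, but control library 1 lay nearer to them than to the other control libraries (log2 fold change -0.24, SE 0.0719, limma adjusted p = 0.152). *Pecam1*, the CD31 gene of endothelial contacts, was at 69.4, 86.1, 79.6 and 80.1 in control and 71.7, 67.7, 64.4 and 61.3 in mutant libraries. Mutant library 1 was above control library 1, and the other mutant values were below all controls (-0.24, limma adjusted p = 0.212).

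*Plvap*, which forms the diaphragms of fenestrated capillaries, was at 53.9, 63.5, 65.1 and 65.1 in control and 64.0, 47.4, 43.7 and 48.1 in mutant libraries. Mutant library 1 was in the upper part of the control range and the other 3 were below every control (log2 fold change -0.29, limma adjusted p = 0.331). *Vwf*, the haemostatic factor stored in endothelial granules, was at 22.2 ± 2.30 and 17.9 ± 2.04 (-0.29, limma adjusted p = 0.244). The junction genes *Esam* and *Cldn5*, an endothelial adhesion molecule and the claudin of tight barriers, were at ratios of 0.853 and 1.01. For *Cldn5* the interval of the fold was wide, 0.763 to 1.28, and mutant library 1 at 17.9 was the highest of all 8 libraries. *Eng*, a TGF-beta co-receptor, and *Mmrn2*, an endothelial matrix protein, were at ratios of 0.906 and 0.867. *Emcn*, the sialomucin of veins and capillaries, *Ecscr*, an endothelial surface protein, and *Nos3*, the endothelial nitric oxide synthase, were at ratios of 0.951, 0.923 and 0.928. *Egfl7*, a secreted endothelial protein whose gene hosts miR-126, was level at 47.9 ± 4.56 and 47.8 ± 7.61, with an interval of the fold from 0.826 to 1.19. Summed over 7 endothelial markers, all of them among the 35 genes, control libraries held 355.5 to 405.7 and mutant libraries 317.6 to 353.3. These sums did not overlap, as 2.77% of single genes tested were lower without overlap. Mutant library 1 (353.3) was close to control library 1 (355.5). *Cdh5*, *Kdr* and *Pecam1*, given above, have the largest values of the 7, so the sum is no separate result. Of the 7, *Cdh5* and *Kdr* were lower in every mutant library and the others overlapped. The 7 dental mesenchyme markers summed to 768.2 to 943.5 in control and 760.2 to 940.2 in mutant libraries, with *Dlx3* and *Barx1* the largest parts. Of these 7, *Prrx1*, named after its values were seen, was higher in every mutant library, as 5.76% of all genes were. It ran from 70.9 to 95.6 in control and 97.8 to 130.4 in mutant libraries (limma adjusted p = 0.0599), and the others overlapped. The 3 odontoblast markers summed to 1524 to 3013 in control and 670.9 to 2466 in mutant libraries, lower in 3 of the 4 mutant libraries than in any control, and none was at 0. Whether the make-up of the tissue had a part in the endothelial values was not tested.

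*Lyve1* was the exception in this group. It encodes a hyaluronan receptor of lymphatic endothelium that some resident macrophages carry too (chr7:110850607-110863239, minus strand). It was at 5.61, 5.16, 4.14 and 4.25 in control and 9.55, 20.7, 11.7 and 6.31 in mutant libraries. All mutant libraries were higher, mutant library 2 by far and mutant library 4 only just. The ratio of means was 2.52 and the log2 fold change was 1.07 (SE 0.280, limma adjusted p = 0.101), which became 1.31 (limma adjusted p = 0.0374) without mutant library 4 and 0.90 (limma adjusted p = 0.825) without the libraries with high enamel transcripts. Of 5 other genes of lymphatic endothelium, *Nr2f2*, which many mesenchymal cells express too, was higher in every mutant library, where 5.76% of all genes were, and the remaining 4 overlapped between groups. *Prox1*, its defining transcription factor, was at 1.06 ± 0.218 and 1.09 ± 0.160, *Ccl21a*, a lymphatic chemokine, at 1.78 ± 0.447 and 2.17 ± 0.627, and *Reln* at 9.52 ± 1.35 and 9.78 ± 2.94. *Pdpn*, the podoplanin gene, was at 50.4 ± 3.35 and 44.2 ± 7.72 (log2 fold change -0.20, limma adjusted p = 0.533), with mutant library 1 the highest of all 8 and the other mutant libraries below every control. Of macrophages, the 4 general markers summed to 70.95 to 124.1 in control and 91.54 to 99.78 in mutant libraries, and none was at 0. Genes of LYVE1-bearing resident macrophages were then chosen after the *Lyve1* values were seen, and they are given without a test. *Cd163* ran from 2.33 to 3.30 in control and 3.76 to 7.07 in mutant libraries, *F13a1* from 13.9 to 18.7 and 20.8 to 33.1, and *Folr2* from 0.882 to 1.59 and 2.08 to 3.27, all without overlap, as 5.76% of all genes tested were higher without overlap. *Mrc1* (35.4 to 63.9 and 51.1 to 87.3) and *Stab1* (39.7 to 53.7 and 50.9 to 93.4) overlapped. Mutant library 2 was the highest of the 8 libraries for each of these 5 genes, as it was for *Lyve1*. The part of lymphatic or macrophage cells in the *Lyve1* values was not tested.

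Both endothelial transcription factors had positive log2 fold changes, and neither passed after adjustment. *Erg* and *Fli1* encode related ETS factors that maintain endothelial identity and bind a GGAA core. *Erg* (chr16:95359169-95586593, minus strand) was at 12.1, 14.2, 13.1 and 12.9 in control and 16.0, 17.1, 24.8 and 17.0 in mutant libraries. All mutant values were higher and mutant library 3 was far above the others. The ratio of means was 1.43 and the log2 fold change 0.47 (SE 0.132, limma adjusted p = 0.131), or 0.33 when mutant library 3 was left out and 0.33 (limma adjusted p = 0.54) without the libraries with high enamel transcripts. *Fli1* was at 13.9 ± 0.513 and 15.6 ± 0.804 (0.15, limma adjusted p = 0.456), with mutant library 2 inside the control range.

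An ETS-type motif was looked for in the 250 bases upstream of RefSeq transcript starts on GRCm38.p6, where 18 of the 35 genes had 23 windows. The 8 letters AACAGGAA occurred on either strand in 2 of the 23 member windows, those of *Egfl7* and *Emcn*, and in 2.25% of all 32851 windows. The shorter AGGAAG, which can overlap it, occurred in 8 of the 23 and in 29.5% of all windows. Both windows with the longer motif are shown as examples of member promoters that hold it. Capitals mark AACAGGAA in *Egfl7* (chr2:26580833-26581082, plus strand, motif from base -92) and its reverse complement in *Emcn* (chr3:137340828-137341077, plus strand, from base -173).
Egfl7: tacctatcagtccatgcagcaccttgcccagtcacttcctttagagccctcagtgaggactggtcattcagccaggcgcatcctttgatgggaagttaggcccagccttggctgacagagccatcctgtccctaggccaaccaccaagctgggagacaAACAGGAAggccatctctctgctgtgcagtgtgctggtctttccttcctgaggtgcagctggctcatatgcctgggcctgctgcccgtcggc
Emcn: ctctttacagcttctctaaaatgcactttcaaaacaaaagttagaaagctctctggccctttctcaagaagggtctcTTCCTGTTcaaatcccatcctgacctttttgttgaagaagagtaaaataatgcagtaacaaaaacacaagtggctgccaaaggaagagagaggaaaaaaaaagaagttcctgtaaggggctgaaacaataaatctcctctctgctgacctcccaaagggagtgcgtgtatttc
A match describes the letters only, and no binding was measured.

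Of the 4 pericyte genes 2 had a negative log2 fold change and none passed after adjustment. Their median was 0.074 with all libraries, -0.055 to 0.18 with each library left out in turn and -0.051 without those with high enamel transcripts. *Rgs5*, a regulator of G-protein signalling and a leading marker of pericytes (chr1:169655501-169695813, plus strand), was at 109.2, 136.5, 107.8 and 127.0 in control and 90.6, 102.8, 76.1 and 104.6 in mutant libraries. The highest mutant value was just under the lowest control value, and without the libraries with high enamel transcripts the log2 fold change was -0.30 (with all libraries, log2 fold change -0.36, SE 0.118, limma adjusted p = 0.199). *Pdgfrb*, the receptor for PDGF-B, was at 71.6, 78.3, 67.5 and 72.7 in control and 71.2, 105.3, 82.4 and 84.5 in mutant libraries. All mutant libraries except the first were above the controls (0.23, limma adjusted p = 0.441). *Cspg4*, which encodes the NG2 proteoglycan of pericytes and other mesenchymal cells, was at 35.5, 38.3, 34.9 and 33.8 in control and 43.7, 51.2, 35.8 and 42.1 in mutant libraries. Mutant library 3 was inside the control range (0.26, limma adjusted p = 0.312). *Abcc9*, the regulatory subunit of the pericyte KATP channel, spread more than 1.5-fold within each group, from 83.2 to 129.5 in control and 64.0 to 132.8 in mutant libraries. *Pdgfrb* and *Cspg4* are expressed in mesenchymal cells other than pericytes, and the share of each source was not tested. Of 8 further pericyte genes tested none passed after adjustment and 2 were lower at an unadjusted p under 0.05, where 4.87% of all genes were. *Kcnj8*, the highest of them in values not divided by length and the pore partner of *Abcc9*, was level at 130.5 ± 10.8 and 128.2 ± 17.1.

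The 4 contractile genes of smooth muscle varied widely within groups, with coefficients of variation from 22.8% to 49.9%, and none passed at either threshold in the limma fit of all libraries. Their median log2 fold change was -0.484 with all libraries, -0.672 to -0.301 with each library left out in turn, -0.226 without the libraries with high enamel transcripts, -0.268 with the skeletal muscle covariate and -0.192 with the ameloblast covariate. At an unadjusted p under 0.05, 3 of the 4 were lower without mutant library 1 (background 5.33%) and 2 without control library 1 (6.13%). At the same threshold 1 (*Myh11*) was lower with median-of-ratios or quantile scaling (5.85% and 5.81%), and 1 (*Cnn1*) was higher with the ameloblast covariate (8.31%). Array weights, which rest mostly on 1 mutant library, called 3 lower after adjustment, as they did 12.6% of all genes. *Acta2*, smooth muscle actin, was at 29.6, 56.7, 56.4 and 92.7 in control and 60.0, 20.2, 46.6 and 24.2 in mutant libraries. The groups overlapped between 29.6 and 60.0, and the interval of the fold ran from 0.344 to 1.18 (limma adjusted p = 0.573). *Tagln*, the actin-binding SM22 gene, was at 33.1 ± 7.55 and 25.8 ± 8.19 (log2 fold change -0.37, or -0.55 to -0.19 with each library left out), and its exons share 1241 bases with the antisense gene *Gm48529*. *Myh11*, smooth muscle myosin, was at 2.22, 3.72, 4.33 and 6.15 in control and 3.94, 1.68, 2.26 and 1.58 in mutant libraries (-0.59, SE 0.267, limma adjusted p = 0.386). *Cnn1*, calponin, was the lowest of the 35 genes per kilobase, with as few as 35 reads in a library, at 0.987 ± 0.336 and 1.33 ± 0.419. All 4 genes were highest in library 4 and lowest in library 1 of the control group, and all 4 were highest in library 1 of the mutant group. Control library 4 also held the most skeletal muscle transcripts, a sum of 62.04 over 9 markers against 12.18 to 13.12 in the other controls and 5.932 to 18.05 in mutant libraries, with none of the 9 at 0. The sum of the 4 epithelial markers was also highest in control library 4. The part of skeletal muscle or epithelium in the contractile gene values was not tested. Of 10 further smooth muscle genes tested none passed after adjustment and 1 (*Mylk*, the myosin light chain kinase gene, named after its values were seen) was higher at an unadjusted p under 0.05, where 8.27% of all genes were. *Mylk* was at 37.7, 39.7, 37.9 and 38.8 in control and 37.0, 93.6, 66.1 and 61.2 in mutant libraries. All mutant values but that of library 1 were above the controls (log2 fold change 0.66, limma adjusted p = 0.222), and without mutant library 1 the log2 fold change was 0.89 (limma adjusted p = 0.0147). *Myocd*, a smooth muscle coactivator named after its values were seen too, did not reach the filter. It was at 0.241 to 0.430 in control and 0.550 to 0.925 in mutant libraries, 17 to 60 estimated reads. These did not overlap, as 5.76% of all genes tested were higher without overlap. With no filter, the only setting that tested it, its log2 fold change was 0.38 (limma adjusted p = 0.0497), where 1.22% of all genes were called higher. *Tpm1*, the highest of them in values not divided by length, was at 959.5 ± 113.7 and 865.9 ± 115.9.

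**Figure D4:**
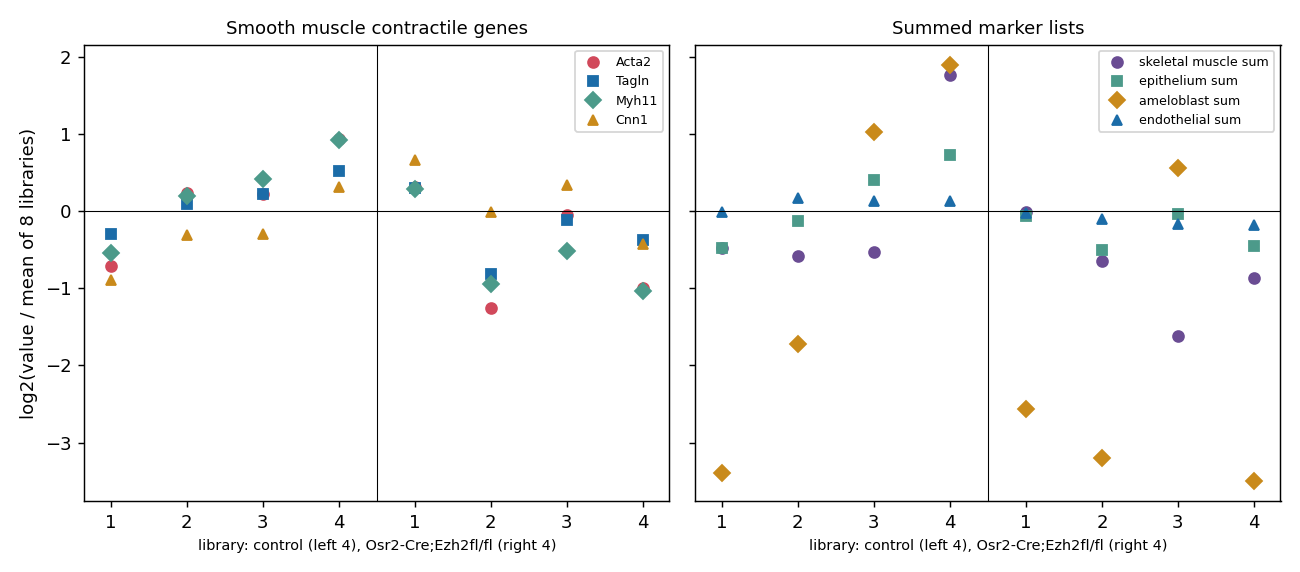
Left, the 4 smooth muscle genes, and right, the summed markers of skeletal muscle, epithelium, ameloblasts and endothelium, each as log2 of the value over the mean of 8 libraries (y axis) in control and mutant libraries 1 to 4 (x axis). The contractile genes and the skeletal muscle sum are highest of the controls in library 4. The endothelial sums of the control group lie above those of the mutant group, only narrowly between library 1 of each group.

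Levels between genes were compared per kilobase of merged exons. In control libraries *Plvap* was the highest at 31.1 ± 2.70 per kilobase, followed by *Cdh5* at 27.9 ± 2.30, *Acta2* at 26.8 ± 11.8 and *Rgs5* at 26.4 ± 3.08. Each of these overlapped the next within 1 SD, and *Rgs5* stood apart from *Aplnr*, the fifth, at 19.1 ± 1.97. *Angpt1* was the 8th gene in control libraries at 13.5 ± 0.538 per kilobase, level with *Egfl7* and *Pdgfrb*, and was at 18.9 in mutant libraries. *Erg* was at 3.77 ± 0.239 per kilobase and overlapped *Fli1* at 3.99 ± 0.147. At the lower end *Lyve1* (1.64 ± 0.244), *Vwf* (1.38 ± 0.143), *Angpt2* (1.23 ± 0.496) and *Myh11* (0.540 ± 0.214) each overlapped the next gene, down to *Cnn1* (0.361 ± 0.123), the lowest. Among the 3 VEGF receptors *Kdr* led at 9.56 ± 0.438 per kilobase, against 2.86 ± 0.197 for *Flt1* and 1.93 ± 0.195 for *Flt4*.

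**Figure D5:**
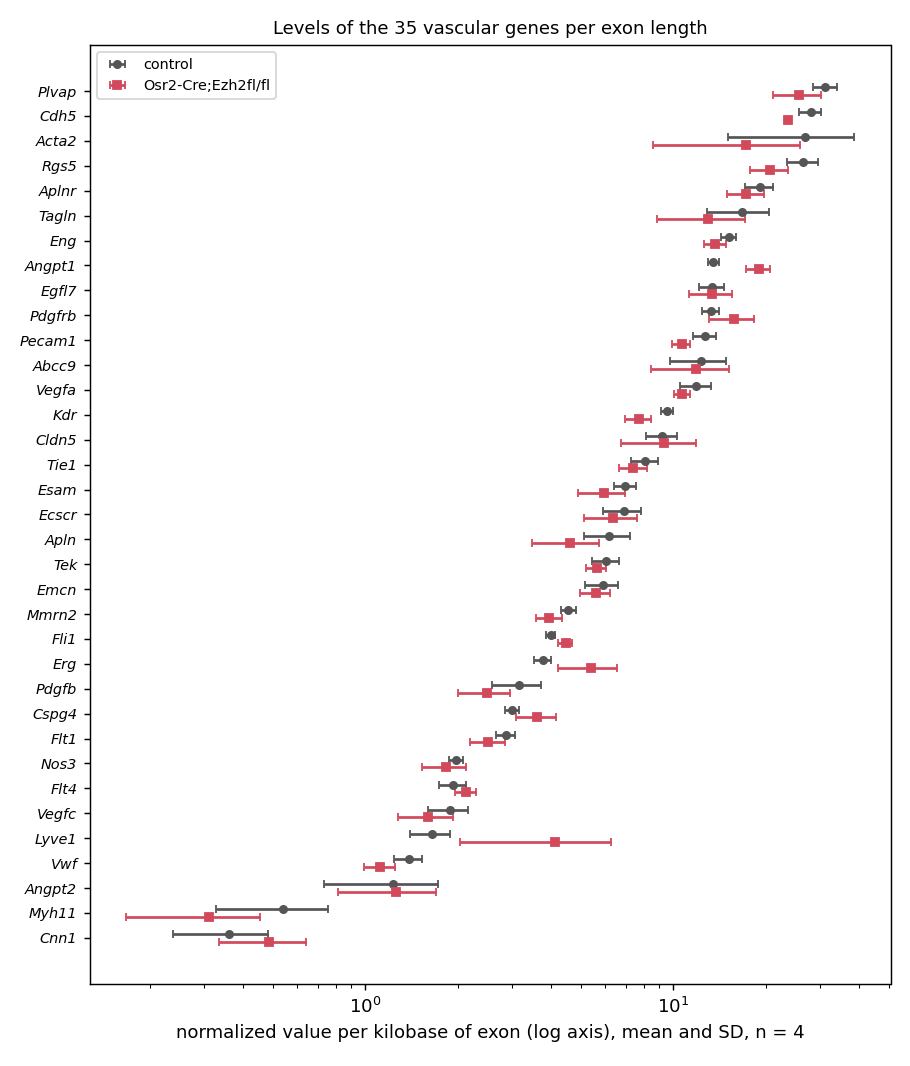
Mean and SD (n = 4) of the normalized value per kilobase of exon (x axis, log scale) for the 35 genes ordered by the control level (y axis), in control (grey) and mutant (red) libraries. *Plvap*, *Cdh5*, *Acta2* and *Rgs5* lead in controls, and *Angpt1*, *Erg* and *Lyve1* have their red point to the right of the grey one.

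The precision behind these comparisons was uneven. The median coefficient of variation of the 35 genes was 10.3% in control and 15.9% in mutant libraries, beside 8.53% and 13.5% over all genes tested. For 24 of the 35 genes the 95% interval lay within 1.5-fold either way, and for 32 within 2-fold. The 3 genes whose intervals reached beyond 2-fold were *Lyve1* (1.36 to 3.24), *Acta2* (0.344 to 1.18) and *Myh11* (0.437 to 1.00).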

How the data were processed

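RNA-seq of molar mesenchyme at postnatal day 3 was analysed in 8 libraries, 4 Ezh2fl/fl (control) and 4 *Osr2KI-Cre;Ezh2fl/fl* (mutant). Groups came from the sample labels, no library was left out, and 0 other columns of per-sample values were present. By the study's methods the authors aligned reads to mm10 with TopHat and normalized them by RPKM, while the submitters' processing notes name CASAVA 1.8.2, STAR 2.5.3a and Partek without a role. The deposited values were treated as a normalized signal, not as RPKM or counts. They carry no length factor, share a 75th percentile of 38.455 to 38.463, and of the values below 20 times the minimum of their library, 62.5% are whole multiples of that minimum (tolerance 0.02). Estimated reads are the value over that minimum, minus 1.

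Differences were tested with limma 3.58.1 in R 4.3.3 (trended variance) on log2(value + 1) for the 14854 genes that reached 1 in 4 or more libraries, with Benjamini-Hochberg adjustment over all of them. The model was tested on simulated data. The pseudocount understates changes of low genes. All 35 genes are named, and further list genes are named where the adjusted p was under 0.05 or, in a list with none, for the highest mean. Genes that resident macrophages with LYVE1 share were chosen later, as were *Prox1*, *Ccl21a*, *Reln*, *Pdpn*, *Prrx1*, *Mylk* and *Myocd* for naming. The members and lists were chosen with earlier results of these data known. Gene positions and merged exon lengths are from GENCODE mouse release 21 (GRCm38, the same build as mm10), with Python 3.11.15, pandas 2.3.3 and matplotlib 3.10.9. Alternatives were pseudocounts of 0.1 and 5, no filter and a filter at 10, median-of-ratios and quantile scaling, no trend, array weights, the replicate block, an ameloblast covariate and each library left out. A skeletal muscle covariate and the omission of libraries with an *Enam* value over 1000 were added after the data were seen.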

Additional observations from a re-analysis of the deposited data

Results flagged for a closer look

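Of 80 sets of 4 libraries examined, 7 held a library whose gap to the nearest of the others was too large a part of the group's range by Dixon's test at the 95% level, where chance gives about 4. Control library 1 held 3 of them. It was low for *Cdh5* (102.7 against 120.6 to 122.9 in the other controls) and for *Plvap* (53.89 against 63.47 to 65.09), and high for *Ezh2* (54.95 against 38.29 to 39.56). Mutant library 3 was high for *Erg* (24.78 against 15.98 to 17.11) and low for *Nos3* (5.687 against 7.968 to 8.331). Mutant library 2 was high for *Vwf* (20.99 against 16.64 to 17.09). Control library 3 was low for *Apela* (1.255 against 1.609 to 1.649).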

How the results depend on the processing

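Under up to 20 alternatives per gene, 27 of the 35 genes kept the sign of their log2 fold change, and of 694 values compared 638 kept both sign and side of the limma adjusted threshold, 25 passed it newly, 3 lost it and 28 changed sign. The 3 losses were all of *Angpt1*. With the replicate block its limma adjusted p was 0.0631, 0 of the 35 genes passed (9 at an unadjusted p under 0.05), and 73 of all genes did. With the block the limma adjusted p was 0.0539 for *Nr2f2*, 0.167 for *Efnb2* and 0.167 for *Apela*. The study's methods mention pairs of samples without saying which libraries form them, and the replicate numbers in the labels showed no pairing: the same-numbered deviations correlated at -0.34, -0.08, 0.22 and -0.43 and 1 of 8 samples correlated best with its own number. With the skeletal muscle covariate 0 genes passed limma's adjusted threshold and 6 the unadjusted one, with 129 and 1352 of all genes. Without the libraries with high enamel transcripts (5 remained) 0 and 4 genes passed, with 8 and 1052 of all genes. Array weights put a weight of 9.66 on mutant library 4 and 0.206 to 2.31 on the others, and called 23 of the 35 genes after adjustment and 28 before it, with 4040 and 6045 of all genes. A filter at a value of 10 called 119 of all genes after adjustment and 1154 before it. With each library left out in turn, 1 to 2 of the 35 genes passed after adjustment and 7 to 16 before it, with 129 to 429 and 1277 to 2239 of all genes. The adjusted count of all genes fell to 158, 129 and 175 without control library 2, 3 and 4 and to 176 and 166 without mutant library 2 and 4, the unadjusted count of the 35 genes was 7 without control library 3, and 2 of the 35 genes passed after adjustment without mutant library 1 (*Angpt1* and *Plvap*), 2 (*Angpt1* and *Kdr*) or 4 (*Angpt1* and *Lyve1*).

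Sign changes were confined to *Emcn*, *Cldn5*, *Egfl7*, *Ecscr*, *Angpt2*, *Nos3*, *Abcc9* and *Cnn1* among the 35 genes, and to *Kcnj8* and *Ldha* among the further genes named. With the ameloblast covariate the log2 fold change was 0.012 for *Emcn*, 0.094 for *Cldn5*, 0.069 for *Egfl7* and 0.008 for *Ecscr*. Quantile scaling gave -0.001 for *Angpt2*. The skeletal muscle covariate gave 0.081 for *Cldn5*, -0.095 for *Angpt2* and 0.029 for *Ldha*. Without the libraries with high enamel transcripts it was 0.05 for *Emcn*, 0.02 for *Cldn5*, 0.01 for *Egfl7*, -0.157 for *Angpt2* and 0.122 for *Ldha*. Array weights gave -0.444 for *Angpt2*, 0.051 for *Abcc9*, -0.035 for *Cnn1* and 0.08 for *Kcnj8*. Leaving out single libraries gave -0.136 to 0.231 for *Angpt2*, -0.237 to 0.11 for *Abcc9*, -0.082 to 0.067 for *Kcnj8*, -0.1 to 0.066 for *Egfl7*, -0.166 to 0.083 for *Cldn5*, -0.155 to 0.006 for *Nos3* and -0.118 to 0.063 for *Ldha*. None of these genes had a limma adjusted p under 0.05 with all libraries, and the cause of these changes was not tested.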

Other observations

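Outside the 35 genes, 22 other endothelial genes were measured, and 18 of them had a negative log2 fold change (median -0.153), where 45.9% of all genes tested did. At an adjusted p under 0.05 limma called 1 lower (*Efnb2*, background 0.512%) and 0 higher (1.56%), and at an unadjusted p under 0.05 it called 5 lower (4.87%) and 0 higher (8.27%). *Efnb2*, the ephrin of arterial endothelium and of mesenchymal cells, was at 54.8, 59.5, 64.3 and 62.0 in control and 43.2, 49.6, 44.3 and 48.6 in mutant libraries. Every mutant value was below every control value (log2 fold change -0.37, SE 0.0758, limma adjusted p = 0.0423), but the limma adjusted p reached 0.176 when single libraries were left out and 0.574 without those with high enamel transcripts. *Efnb2* also missed the threshold with a filter at 10, with no trend and with the ameloblast or skeletal muscle covariate.

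Of 5 lymphatic genes 1 passed after adjustment, where 2.07% of all genes did. *Nr2f2*, which encodes the COUP-TFII factor of veins, lymphatics and many mesenchymal cells, was at 31.1, 31.6, 23.7 and 26.8 in control and 53.7, 43.9, 47.1 and 42.4 in mutant libraries. Every mutant value was higher, by a ratio of means of 1.65 (log2 fold change 0.71, SE 0.110, limma adjusted p = 0.0118), but it missed the threshold with the skeletal muscle covariate (0.70, limma adjusted p = 0.0571) and without the libraries with high enamel transcripts (0.55, limma adjusted p = 0.259). The 12 hypoxia response genes measured, which include regulators and targets of the HIF factors, gave 0 calls at either threshold in limma with all libraries. Their median log2 fold change was -0.025, or -0.108 to 0.003 with each library left out in turn and 0.043 without the libraries with high enamel transcripts. Without mutant library 1, where the median was lowest, 10 of the 12 were negative. *Ldha*, the highest of them in values not divided by length, was at 252.3 ± 23.2 in control and 245.1 ± 36.6 in mutant libraries.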
